A study of Mus musculus with 5 samples.

Results

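The genes described here encode 35 enzymes of nucleotide synthesis and of the serine and folate pathways that supply it. They were taken by name, as enzymes of purine, pyrimidine and deoxynucleotide synthesis, purine salvage, serine synthesis and the folate cycle. The list was drawn up when nucleotide synthesis genes were already known to be lower in DKO, so its direction here is a description and no independent support. Each of the 35 names had a row among the 38924 of the deposited table. All 35 passed the minimum mean of 10 normalized counts that left 13242 genes for testing. A normalized count is a read count divided by 1 factor per library, as the authors deposited it. Names are written in capitals, as the table has them.

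RNA was sequenced from germinal center B cells, labelled eGFP+ and sorted by flow cytometry from spleens of 12-week-old mice on day 7 after immunization with sheep red blood cells. The DKO group had 2 libraries, from mice with floxed Relb and Nfkb2 on both alleles and the Cre transgene Cg1-Cre (Relb fl/fl Nfkb2 fl/fl Cg1-Cre). The WT group had 3 libraries, from littermates that carried Cg1-Cre and are labelled WT. Cre was thus present in both groups. Cg1-Cre is driven from the IgG1 constant region locus and acts in B cells once that locus is transcribed, so a B cell that has not reached this stage keeps its floxed genes intact. Relb and Nfkb2 encode RELB and the p52 precursor, which pair as the transcription factor of the alternative NF-κB pathway. The labels do not say whether a library came from 1 mouse or from several, so p-values measure the spread between these libraries, which may be technical in part.

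Dividing cells make purines stepwise on phosphoribosyl pyrophosphate (PRPP) and make the pyrimidine ring before joining it to PRPP. Ribonucleotide reductase turns ribonucleotides into deoxynucleotides for DNA. Serine gives up carbon units to tetrahydrofolate, and these units are built into the purine ring and into thymidylate. Germinal center B cells cycle fast between rounds of antigen-driven selection, which makes them heavy users of these pathways.

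The libraries held 35.2 and 48.2 M reads in DKO, against 34.0 to 57.6 M in WT. Reads outside the mitochondrial genome numbered 17.7 and 17.6 M in DKO, against 15.4 to 15.5 M in WT. Mitochondrial rRNA took 47.0% and 60.6% of the reads in DKO replicates 1 and 2. In WT replicates 1 to 3 it took 62.4%, 51.6% and 70.9%. RELB was at 56.9 and 10.7 normalized counts in DKO replicates 1 and 2, against 136, 171 and 117 in WT replicates 1 to 3. NFKB2 was at 298 and 73.5 normalized counts in DKO replicates 1 and 2, against 657, 601 and 445 in WT replicates 1 to 3. Both genes were thus lower in the DKO libraries than in any WT library, and DKO replicate 1 kept more of each than DKO replicate 2. Their log2 fold changes were -2.43 ± 0.63 and -1.91 ± 0.51 (SE), with a limma adjusted p of 0.823 for each. The germinal center factor BCL6 (10263 and 9887 in DKO, 9681 to 11763 in WT) was abundant in all 5 libraries. Of the 6 germinal center markers examined, MEF2B alone was listed at 0 throughout. The 5 tested all had lower means in DKO, where 50% of all tested genes did, with log2 fold changes from -1.63 to -0.11. DKO values lay all below WT in 1 of the 5, where 11% of all tested genes had that order. The smallest unadjusted p by limma among them was 0.000754 (adjusted p = 0.768), and 0 were called. The Y-linked gene DDX3Y, chosen after its values were seen, was at 1778 in DKO replicate 1 and 1762 in WT replicate 1 and at 0 in the others, so each group held mice of both sexes.

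No nucleotide or one-carbon synthesis gene passed the test between DKO and WT. The mean on the log2(value + 1) scale was lower in DKO for 31 of the 35 genes, where 50% of all tested genes were lower, and higher for PFAS, PRPS2, TK1 and SHMT1. With libraries scaled to genes outside the mitochondrial genome, ADSS and DTYMK also had higher means, which left 29 lower. The median log2 fold change, DKO over WT, was -0.21 over the 35 genes and 0.00 over all tested genes. By limma with Benjamini-Hochberg adjustment over all tested genes, adjusted p ran from 0.832 to 0.980 among the members, and 0% of all genes were called. At an unadjusted p under 0.05 limma had 0 members, where 3.69% of all genes were past it as higher and 2.37% as lower in DKO. These were 489 and 314 genes, and 643 and 195 with libraries scaled to genes outside the mitochondrial genome. EdgeR on the recovered reads called 0 members and 0% of all genes, with 445 genes higher and 303 lower before adjustment at the same 0.05, and DESeq2 called 0 members and 0.219% of all genes. In each of these count-based fits 1 member, CTPS2, was under an unadjusted p of 0.05. All 35 intervals of 95% included 0. They reached down to -1.44 on the log2 scale for APRT and up to 0.80 for SHMT1. A difference inside a gene's own interval is thus not excluded by these 2 and 3 libraries. Standard errors lay between 0.18 and 0.43. The largest were those of IMPDH1, APRT and DHODH (0.43, 0.41 and 0.40). These members also had the fewest reads in their lowest library (44, 107 and 71).

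The DKO libraries differed from each other in these genes. DKO replicate 1 was below DKO replicate 2 in 33 of the 35 genes, where 48.4% of all tested genes were, the exceptions being IMPDH1 and CTPS2. It was below every WT library in 27 members, where 26.4% of all genes were, and above every WT library in 0, where 26.6% were. DKO replicate 2 was below every WT library in 1 member, CTPS2, where 21.5% of all genes were. It lay within the WT range in 27 members, where 57.0% of all genes did, and above it in 7, where 21.5% did. As a percentage of the WT mean, the members had a median of 73.1% in DKO replicate 1 and 100.9% in DKO replicate 2. The median log2 fold change over the members was 0.03 without DKO replicate 1, with 13 of 35 lower, and -0.44 without DKO replicate 2, with 35 of 35 lower. Without WT replicate 3, the WT library with the highest value in 27 of the 35 genes, the median was -0.06 with 25 lower. Without DKO replicate 1 and WT replicate 2 together it was -0.07 with 24 lower.

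**Figure D1:**
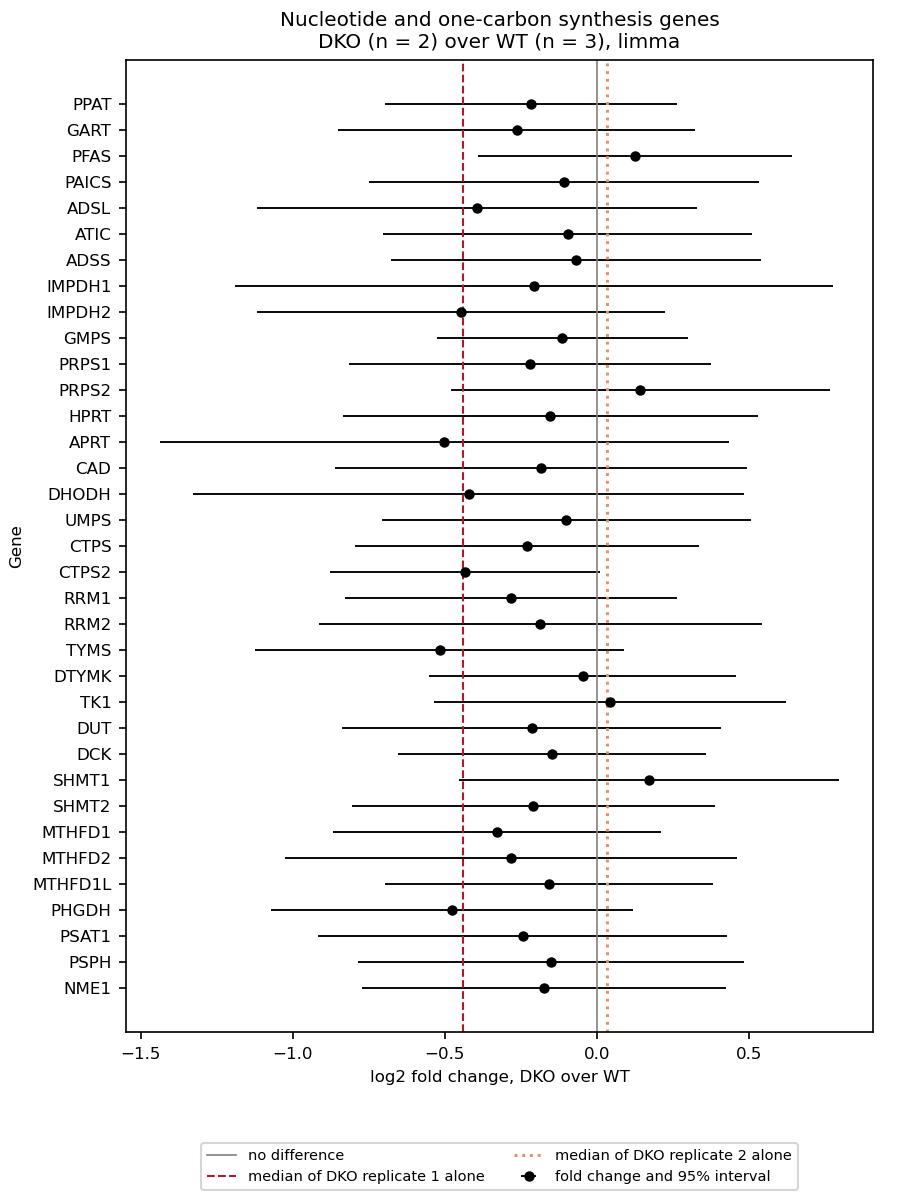
Log2 fold changes of the 35 genes, DKO (n = 2) over WT (n = 3), with 95% intervals from limma on log2(value + 1). All 35 intervals cross 0. The dashed line marks the median of DKO replicate 1 alone (-0.44) and the dotted line that of DKO replicate 2 alone (0.03), both relative to the WT mean.

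The enzymes of the purine ring, 6 in number, had lower means in DKO for 5 and a higher one for PFAS. PPAT, which commits PRPP to purine synthesis, was at 1585 and 2190 normalized counts in DKO replicates 1 and 2, against 2197, 1998 and 2314 in WT replicates 1 to 3. DKO replicate 1 was the low value and DKO replicate 2 lay among the WT libraries, and the log2 fold change was -0.22 ± 0.21 (SE; limma adjusted p = 0.896). PAICS, a bifunctional enzyme of the middle of the pathway, was at 9063 and 13123 in DKO, against 13441, 8525 and 14173 in WT. Here the groups overlapped fully, with WT replicate 2 lowest and DKO replicate 1 next to it. ADSL, which releases fumarate both in the ring pathway and on the way to AMP, was at 292 and 563 in DKO, against 510, 453 and 657 in WT. Its log2 fold change was -0.40 ± 0.32, and DKO replicate 1 reached only 54.0% of the WT mean while DKO replicate 2 reached 104.3%. ATIC, which closes the ring with a formyl group from folate, was at 1183 and 2008 in DKO, against 1394, 1637 and 1962 in WT. Its DKO libraries were the lowest and the highest of the 5. GART, a trifunctional enzyme that also uses formyl folate, had a log2 fold change of -0.26 ± 0.26. Its exons share 1014 bases with an antisense gene of the opposite strand, the longest such overlap of any member. PFAS, which adds nitrogen from glutamine, was at 570 and 722 in DKO, against 561, 545 and 667 in WT, and its log2 fold change of 0.12 ± 0.23 was smaller than its error.

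PPAT and PAICS lie head to head, and their RefSeq promoter windows in GRCm38.p6, 250 bases before to 50 after each start, are shown because these enzymes of 1 pathway start within the same short region. The PPAT start lies 276 bases to the right of the PAICS start, on the opposite strand, so the first parts of both genes overlap. Capitals mark CACGTG, the E-box known as a binding sequence of MYC with MAX and of USF factors. The word reads the same on both strands.
PPAT (chr5:76951529-76951828, minus strand): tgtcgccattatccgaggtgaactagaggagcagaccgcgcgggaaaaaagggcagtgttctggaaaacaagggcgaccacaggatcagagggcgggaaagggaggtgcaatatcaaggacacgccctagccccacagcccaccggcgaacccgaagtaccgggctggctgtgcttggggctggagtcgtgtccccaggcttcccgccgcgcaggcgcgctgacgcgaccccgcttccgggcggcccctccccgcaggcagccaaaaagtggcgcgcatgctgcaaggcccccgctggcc
PAICS (chr5:76951052-76951351, plus strand): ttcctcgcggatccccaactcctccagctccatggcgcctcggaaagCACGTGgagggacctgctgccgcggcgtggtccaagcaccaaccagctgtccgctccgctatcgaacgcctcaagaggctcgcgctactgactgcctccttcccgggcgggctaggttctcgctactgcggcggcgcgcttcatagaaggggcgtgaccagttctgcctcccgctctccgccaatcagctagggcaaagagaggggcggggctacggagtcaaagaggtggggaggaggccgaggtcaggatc
The E-box stood 203 bases upstream of the PAICS start, and the PPAT window held none. In GENCODE M21 the exons of PPAT and PAICS share 272 bases on opposite strands. Whether reads were counted by strand is not given in the sources used here, so reads in that stretch could count for either gene. Per kb of transcript, the ratio of PAICS to PPAT was 9.58 and 10.0 in DKO replicates 1 and 2, against 10.2, 7.15 and 10.3 in WT replicates 1 to 3, so WT replicate 2 alone was low.

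The same 6-base word was looked for in all RefSeq promoter windows of that length. A window was found for 33 of the 35 members (PFAS and DHODH had no entry). CACGTG was present for 6 of the 33 members (18.2%) and for 2187 of 27025 genes (8.09%). The 6 were PAICS and the genes shown here, each with the word in capitals and 30 bases on either side, because they are the members that carry it.
ATIC (chr1:71557119-71557184, plus strand): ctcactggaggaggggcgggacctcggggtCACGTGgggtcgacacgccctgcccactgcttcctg
DTYMK (chr1:93802047-93802112, minus strand): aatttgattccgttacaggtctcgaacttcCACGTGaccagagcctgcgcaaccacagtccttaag
IMPDH2 (chr9:108560296-108560361, plus strand): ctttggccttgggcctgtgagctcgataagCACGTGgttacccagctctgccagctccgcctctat
NME1 first start (chr11:93968019-93968084, minus strand): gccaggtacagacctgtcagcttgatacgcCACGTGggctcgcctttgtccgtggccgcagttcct
NME1 other start (chr11:93968255-93968320, minus strand): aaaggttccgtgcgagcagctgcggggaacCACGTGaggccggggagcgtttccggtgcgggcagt
TYMS (chr5:30073651-30073716, minus strand): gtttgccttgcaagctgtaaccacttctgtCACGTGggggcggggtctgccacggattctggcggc
The word began 7 bases upstream of the annotated start in ATIC, 148 in DTYMK, 110 in IMPDH2 and 61 in TYMS. NME1 has more than 1 annotated start, with the word 29 and 18 bases upstream of them, in the order shown. The start labelled first has the lower coordinate, which on the minus strand lies downstream of the other. The E2F sequences TTTCGCGC and TTTGGCGC, searched on both strands, were in 0 of the 33 member windows and in 0.374% and 0.585% of all genes. A match describes these letters only, and no match says nothing about binding elsewhere. MYC transcripts stood at 1264 and 1658 normalized counts in DKO, against 1709, 1413 and 1542 in WT (log2 fold change -0.10 ± 0.21), with DKO replicate 1 the lowest of the 5. The members with the word had log2 fold changes from -0.52 (TYMS) to -0.05 (DTYMK). The other members ran from -0.50 (APRT) to 0.17 (SHMT1).

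Past inosine monophosphate, the AMP and GMP branch had lower means in DKO for 4 of 4 genes (3 of 4, without ADSS, when scaled to genes outside the mitochondrial genome), none called. ADSS, the first enzyme toward AMP, was at 1785 and 2872 normalized counts in DKO, against 1865, 2579 and 2788 in WT, with the DKO libraries at both ends of the range. IMPDH2, the inducible form of the rate-limiting enzyme toward GMP, was at 164 and 237 in DKO, against 228, 267 and 320 in WT. Its log2 fold change was -0.45 ± 0.30 (limma adjusted p = 0.877), and DKO replicate 2 lay between WT replicates 1 and 2. IMPDH1, the other form, was sparse, at 59.5 and 50.4 in DKO against 47.1, 80.5 and 67.3 in WT. GMPS, which makes GMP from xanthosine monophosphate, was the steadiest of the 4. It was at 3186 and 3280 in DKO, against 3626, 3604 and 3279 in WT. DKO replicate 2 and WT replicate 3 were nearly equal there, and the log2 fold change was -0.11 ± 0.18. IMPDH2 has a near-identical processed pseudogene in the annotation, so its reads may be divided in ways that cannot be seen here.

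Among the makers of PRPP and the salvage enzymes, PRPS2 had a higher mean in DKO and PRPS1, HPRT and APRT lower ones. PRPS2, 1 of the synthetases that make PRPP, was at 3162 and 5138 normalized counts in DKO, against 3235, 3159 and 4771 in WT. DKO replicate 2 was the highest of the 5 and stood at 138% of the WT mean, the furthest above it of any member. PRPS1, its paralog, was at 497 and 691 in DKO, against 655, 566 and 857 in WT. The ratio of PRPS2 to PRPS1 per kb was 3.38 and 3.95 in DKO replicates 1 and 2, against 2.62, 2.96 and 2.96 in WT replicates 1 to 3. It was thus above all WT libraries in both DKO libraries, in a comparison of 7 gene pairs picked with earlier results known and with no test. HPRT, which salvages hypoxanthine and guanine, was at 3321 and 4421 in DKO, against 5207, 2809 and 5301 in WT, where WT replicate 2 was the lowest of the 5. APRT, which salvages adenine, was at 93.7 and 196 in DKO, against 142, 184 and 272 in WT. DKO replicate 1 had 47.0% of the WT mean, the lowest share of any member, while DKO replicate 2 had 98.2%, and the log2 fold change was -0.50 ± 0.41 (limma adjusted p = 0.880). PRPS1, PRPS2, HPRT and CTPS2 are on chromosome X.

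The pyrimidine enzymes had lower means in DKO for 5 of 5, and they include the only member whose DKO values all lay below its WT values, where 11% of all tested genes had that order. The member is CTPS2, 1 of a pair of synthases that make CTP from UTP. It was at 870 and 795 normalized counts in DKO replicates 1 and 2, against 1064, 1178 and 1134 in WT replicates 1 to 3. Both DKO libraries were low and the WT libraries lay close together. Its mean was 833 ± 53.7 in DKO (SD, n = 2) and 1125 ± 57.6 in WT (SD, n = 3). The log2 fold change was -0.43 ± 0.20, with an unadjusted p of 0.0538 and an adjusted p of 0.832 by limma. EdgeR gave an unadjusted p of 0.0483 (adjusted p = 0.856) and DESeq2 0.0325 (adjusted p = 0.661). Over all alternatives the unadjusted p ran from 0.0318 with the length and GC correction to 0.226 without DKO replicate 2, through 0.126 when scaled to genes outside the mitochondrial genome. CTPS, its paralog, was at 347 and 461 in DKO, against 424, 546 and 446 in WT, and overlapped between the groups. The ratio of CTPS2 to CTPS per kb was 2.02 and 1.39 in DKO, against 2.03, 1.74 and 2.05 in WT, so DKO replicate 2 alone was low. The opposite order, DKO values all above WT, was seen in 0 members and 12.5% of all genes. Both counts turn on single libraries. Without DKO replicate 2, 27 members lay all below WT, where 26.4% of all genes did. Without DKO replicate 1, 7 lay all above it, where 21.5% of all genes did. Without WT replicate 2, WT replicate 1 or WT replicate 3, 11, 5 or 2 members lay all below WT. Without WT replicate 3, 2 lay all above it. Groups of fewer libraries separate more easily, and the shares of all genes without a WT library were not counted. The counts without a WT library are thus no result about the members.

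Of the other pyrimidine enzymes, CAD carries out the opening steps of ring synthesis. It was at 926 and 1161 normalized counts in DKO, against 860, 1098 and 1733 in WT, with the widest WT spread of any member (coefficient of variation 36.7%). DHODH, the mitochondrial enzyme that oxidizes dihydroorotate, was at 62.2 and 118 in DKO, against 118, 93.9 and 138 in WT. DKO replicate 1 was the low library and DKO replicate 2 was nearly equal to WT replicate 1. UMPS, which makes UMP, was at 548 and 885 in DKO, against 741, 639 and 880 in WT, with the DKO libraries at both ends of the range once more.

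The deoxynucleotide enzymes had lower means in DKO for 6 of 7 (5 of 7, without DTYMK, when scaled to genes outside the mitochondrial genome), and DKO replicate 1 was below DKO replicate 2 in 7 of 7. RRM1, the large subunit of ribonucleotide reductase, was at 4834 and 7130 normalized counts in DKO, against 6947, 6181 and 8502 in WT (log2 fold change -0.28 ± 0.24, and -0.0035 without DKO replicate 1). RRM2, the small subunit made mainly in S phase, was at 3296 and 6158 in DKO, against 5827, 3669 and 6307 in WT (log2 fold change -0.19 ± 0.32). In both subunits DKO replicate 1 was lowest and WT replicate 2 next. TYMS, which makes thymidylate with a carbon unit from folate, had a log2 fold change of -0.52 ± 0.27 (limma unadjusted p = 0.0855, adjusted p = 0.858), which was -0.20 without DKO replicate 1, -0.84 without DKO replicate 2 and lay between these without a WT library. It was at 961 and 1502 in DKO, against 2135, 1378 and 1732 in WT. DKO replicate 2 exceeded WT replicate 2, so the groups overlapped. TK1, which salvages thymidine, was at 1228 and 1545 in DKO, against 1553, 992 and 1552 in WT, and its log2 fold change was 0.04 ± 0.26. DUT, which removes dUTP, was at 832 and 1410 in DKO, against 1181, 1085 and 1551 in WT. DTYMK, which phosphorylates thymidylate, varied least in WT (coefficient of variation 3.23%), and both DKO libraries lay outside its WT range, on opposite sides. It was at 563 and 760 in DKO, against 653, 696 and 679 in WT. DCK, which phosphorylates salvaged deoxycytidine, was at 8846 and 10727 in DKO, against 11475, 8945 and 12244 in WT, with DKO replicate 1 and WT replicate 2 side by side at the low end.

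In the folate cycle 4 of 5 genes had lower means in DKO and SHMT1 a higher one. SHMT2, the mitochondrial enzyme that takes the carbon unit from serine, was at 1888 and 2906 normalized counts in DKO, against 2563, 2241 and 3465 in WT (log2 fold change -0.21 ± 0.26). SHMT1, its cytosolic counterpart, was at 340 and 440 in DKO, against 318, 291 and 437 in WT (log2 fold change 0.17 ± 0.28). The ratio of SHMT2 to SHMT1 per kb was 6.94 and 8.24 in DKO, against 10.1, 9.62 and 9.90 in WT. That ratio was below all WT libraries in both DKO libraries, again as a description with no test. MTHFD2, which oxidizes the folate-bound unit in mitochondria, was at 377 and 623 in DKO, against 566, 437 and 828 in WT. MTHFD1L, which releases it from mitochondria as formate, was at 1356 and 1864 in DKO, against 1833, 1449 and 2099 in WT. MTHFD1, the cytosolic enzyme that takes formate up again, was at 559 and 653 in DKO, against 625, 761 and 917 in WT. Of the folate genes it was nearest to a gap between the groups, with DKO replicate 2 above WT replicate 1 only, and its log2 fold change was -0.33 ± 0.24 (limma adjusted p = 0.877).

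Serine synthesis had lower means in DKO for 3 of 3 genes. PHGDH, which draws 3-phosphoglycerate out of glycolysis as the first enzyme of the path, was at 291 and 395 normalized counts in DKO, against 506, 389 and 533 in WT. DKO replicate 2 lay just above WT replicate 2, and the log2 fold change was -0.48 ± 0.26 (limma unadjusted p = 0.103, adjusted p = 0.864). PHGDH has several near-identical processed pseudogenes. Of those with a row in the table the highest, Gm7901, was at 14.0 and 6.61 in DKO, against 17.1, 8.25 and 15.4 in WT. PSAT1, the transaminase that follows, was at 2853 and 4175 in DKO, against 4245, 2891 and 5563 in WT. PSPH, which releases serine, was at 241 and 311 in DKO, against 246, 312 and 365 in WT. Its exons share 452 bases with a transcript of the opposite strand, and reads there cannot be told apart without strand. The same holds for shorter stretches in UMPS (213 bases), SHMT1 (184), TK1 (83), IMPDH2 (48), MTHFD1 (37) and SHMT2 (32). NME1, a kinase that equilibrates nucleoside diphosphates and triphosphates, was at 230 and 276 in DKO, against 329, 249 and 282 in WT, with DKO replicate 2 inside the WT range. The exons of NME1 share 418 bases with Gm20390 on the same strand, which was at 0 in all 5 libraries.

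**Figure D2:**
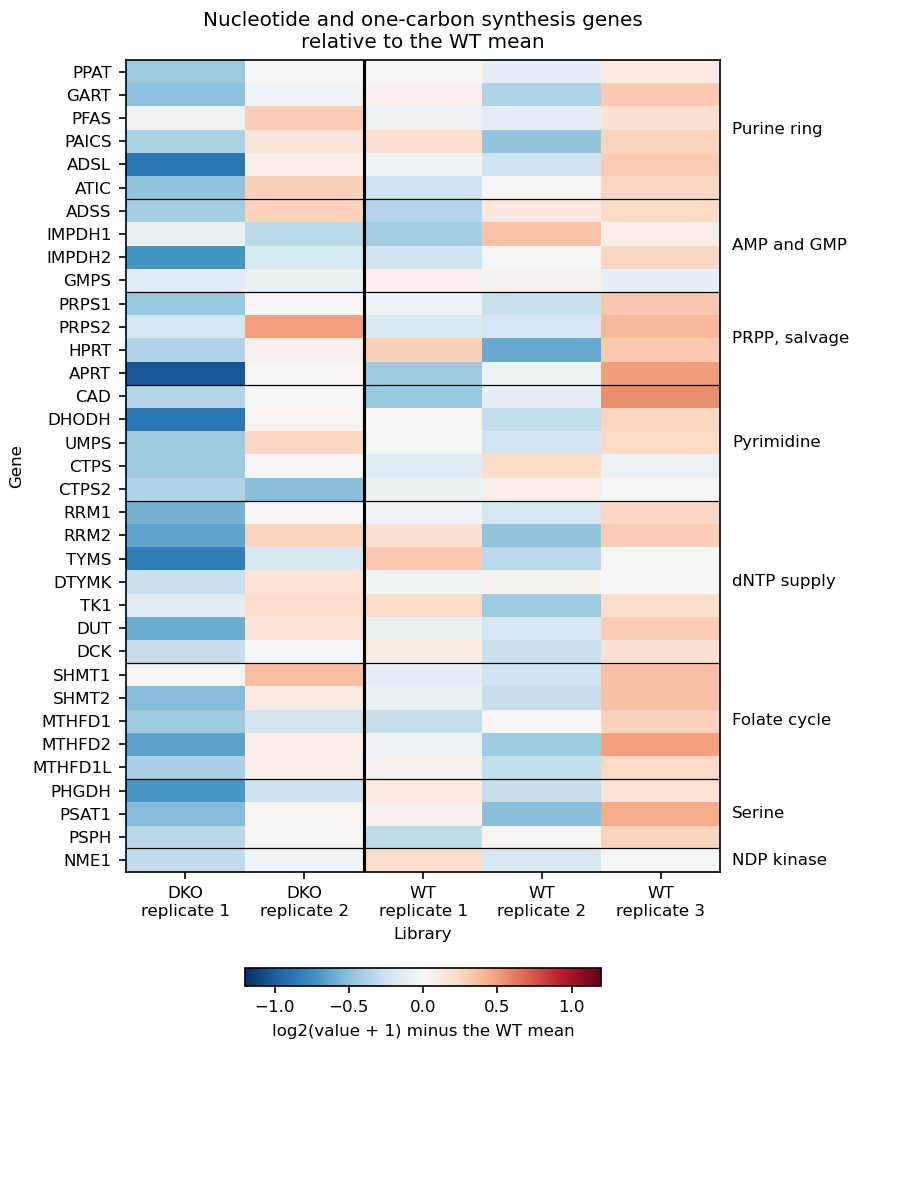
Each of the 35 genes in each library, as log2(value + 1) minus the mean of the 3 WT libraries, in role groups from the purine ring to the nucleoside diphosphate (NDP) kinase NME1. DKO replicate 1 is blue in nearly every row (median -0.44), DKO replicate 2 is mixed (median 0.03), WT replicate 2 is mostly pale blue (median -0.21) and WT replicate 3 mostly red (median 0.25).

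The WT libraries differed among themselves in the same set of genes. WT replicate 3 had the highest of the WT values in 27 of the 35 members, where 32.4% of all tested genes had that order, and WT replicate 2 the lowest in 23, where 35.2% had it. As a median deviation from the WT mean on the log2 scale, the members stood at -0.44 and 0.03 in DKO replicates 1 and 2, against -0.06, -0.21 and 0.25 in WT replicates 1 to 3. Over all tested genes these medians were 0.02 and 0.01 in DKO, against 0.02, 0.01 and -0.01 in WT. By role, DKO replicate 1 was lowest in the deoxynucleotide genes (median -0.56) and the serine genes (-0.52) and nearest to WT in the AMP and GMP branch (-0.27). DKO replicate 2 ran from -0.14 in the AMP and GMP branch to 0.17 in the deoxynucleotide genes. The spread within WT was no wider than usual, with a median coefficient of variation of 19.4% over the members and 24.4% over all tested genes.

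Genes of S phase and markers of other cells moved with the same libraries. The 15 S phase genes, MCM helicase subunits and replication factors, had a median deviation of -0.49 and 0.16 in DKO replicates 1 and 2, against 0.03, -0.30 and 0.25 in WT replicates 1 to 3. Of them, PCNA, the sliding clamp of DNA polymerase, was at 3297 and 5418 normalized counts in DKO, against 5529, 4318 and 5648 in WT. The 15 genes were lower in DKO for 13, with 0 called. The 7 mitosis genes stood at -0.19 and 0.25 in DKO, against 0.21, -0.41 and 0.30 in WT, and MKI67, the proliferation marker among them, was at 68565 and 54064 in DKO, against 120604, 69174 and 38036 in WT. The median order of the libraries was thus alike in the members and the S phase genes, with DKO replicate 1 lowest, WT replicate 2 next and WT replicate 3 highest in both. The share of reads from mitochondrial rRNA had the same lowest, next and highest libraries. Whether it has a part in these levels was not tested.

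Transcripts of other lymphocytes ran the other way. The 5 naive B cell markers summed to 21338 and 10720 normalized counts in DKO, against 8955, 24087 and 13070 in WT. The 8 T cell markers summed to 407 and 84.2 in DKO, against 64.2, 949 and 32.7 in WT, with CD3E of the T cell receptor complex at 163 and 26.4 in DKO, against 10.7, 363 and 7.69 in WT. CCR7, the homing receptor of naive lymphocytes, was at 401 and 79.3 in DKO, against 178, 575 and 112 in WT. DKO replicate 1 and WT replicate 2 were thus the high libraries for both marker lists and the low ones for the synthesis genes. The 6 myeloid markers summed to 1271 and 604 in DKO, against 1195, 1028 and 268 in WT, with LYZ2 at 620 and 86.7 in DKO, against 510, 423 and 44.2 in WT. The 6 germinal center markers summed to 20478 and 23575 in DKO, against 31187, 21718 and 30791 in WT, lowest again in DKO replicate 1 and WT replicate 2 within their groups. The plasma cell list (4717 and 6542 in DKO, 5358 to 8393 in WT), the NK cell list (69.2 and 23.1 in DKO, 0 to 255 in WT) and the erythroid list (97.2 and 26.4 in DKO, 14.4 to 18.2 in WT) are given as sums too. With T cell markers as a term of the fit, the members' median log2 fold change was -0.14, against -0.21 without it, and 31 of 35 were lower with 0 called. Among the larger shifts, PAICS was at -0.03 against -0.11, HPRT at -0.06 against -0.15 and RRM2 at -0.09 against -0.19. IMPDH1 moved the other way, at -0.25 against -0.21, as did GMPS, CTPS and CTPS2. In a fit of 5 libraries this term cannot stand for the mix of cells, as the marker lists differ in their ratios between libraries. The part of any marker list in these levels was not tested. In bulk samples, fewer cells of a type and less RNA per cell cannot be told apart.

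**Figure D3:**
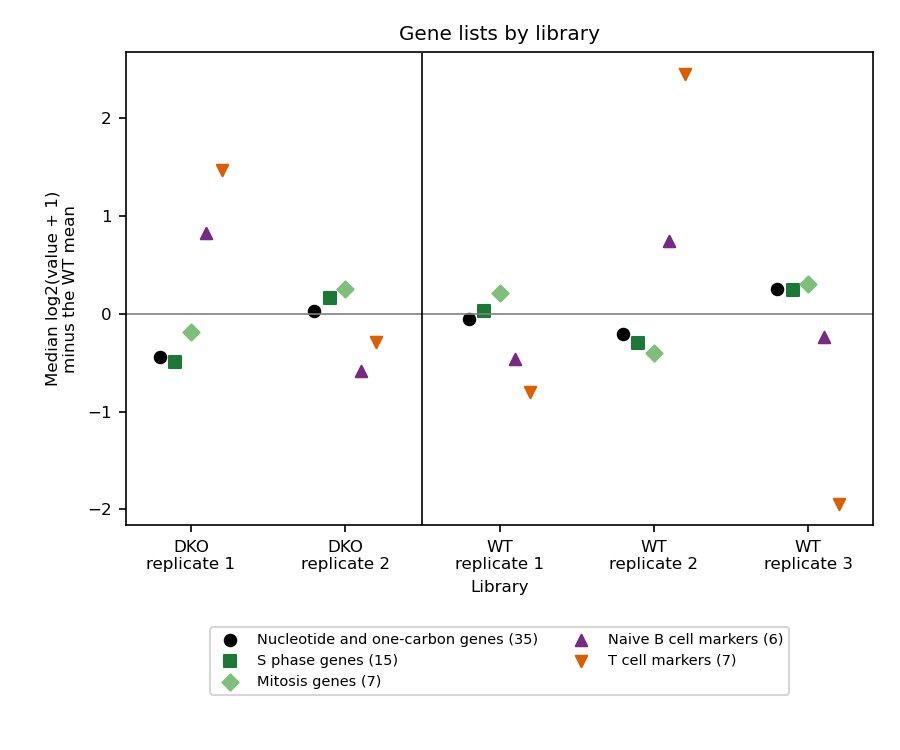
Median deviation from the WT mean, log2(value + 1), of the 35 synthesis genes and of 4 other lists in each library; the naive B cell list has 6 rows because CR2 is in the table with a repeated name. The synthesis and S phase genes lie together in every library, low in DKO replicate 1 (-0.44 and -0.49) and high in WT replicate 3 (both 0.25). T cell markers are high in DKO replicate 1 (1.47) and WT replicate 2 (2.45).

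Set beside WT libraries picked by marker sums or by sex, the DKO libraries gave these counts. They rest on single libraries that were not matched, with T cell marker sums of 407 in DKO replicate 1 and 949 in WT replicate 2. They describe order only, and no cause was tested. DKO replicate 1 was below WT replicate 2, the other library high in T and naive B cell markers, in 29 of 35 members, and 50.1% of all genes were. DKO replicate 2 was below both WT replicates 1 and 3 in 11 members and above both in 8, where 31.9% and 31.2% of all genes were. By sex, DKO replicate 1 was below WT replicate 1, the other male library, in 31 of 35, where 49.7% of all genes were. DKO replicate 2 was below both of the female WT libraries in 5 and above both in 7, where 29.8% of all genes were in each case. With sex as a covariate, added after the values were seen, the median log2 fold change over the members was -0.16 with 30 lower and 0 called.

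Levels between genes can be compared only per length. In normalized counts per kb of the longest annotated transcript, PAICS was the most abundant member, at 4469 ± 1157 in DKO (SD, n = 2) and 4853 ± 1238 in WT (SD, n = 3). It was followed by DCK, with 3180 in DKO and 3537 in WT, and HPRT, with 3003 in DKO and 3444 in WT. RRM2 (2155 in DKO, 2402 in WT), PSAT1 (1343 in DKO, 1617 in WT) and RRM1 (1093 in DKO, 1317 in WT) came next. At the low end stood NME1 (79.6 in DKO, 90.0 in WT), DHODH (23.7 in DKO, 30.6 in WT) and IMPDH1 (21.1 in DKO, 24.98 in WT). The most abundant member was 194 times the least abundant in WT. Of the 34 neighbouring pairs in this order, 33 had overlapping WT ranges, and the exception was the step between NME1 and DHODH. IMPDH2 was above IMPDH1 per kb, with a ratio of 3.85 and 6.58 in DKO, against 6.77, 4.65 and 6.66 in WT. RRM1 stayed under RRM2, at a ratio of 0.587 and 0.464 in DKO, against 0.478, 0.675 and 0.540 in WT. The cytosolic MTHFD1 and the mitochondrial MTHFD2 were close per kb, at a ratio of 0.952 and 0.674 in DKO, against 0.710, 1.12 and 0.712 in WT. In these last 3 ratios DKO replicate 1 and WT replicate 2 stood apart from the other libraries in the same direction.

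**Figure D4:**
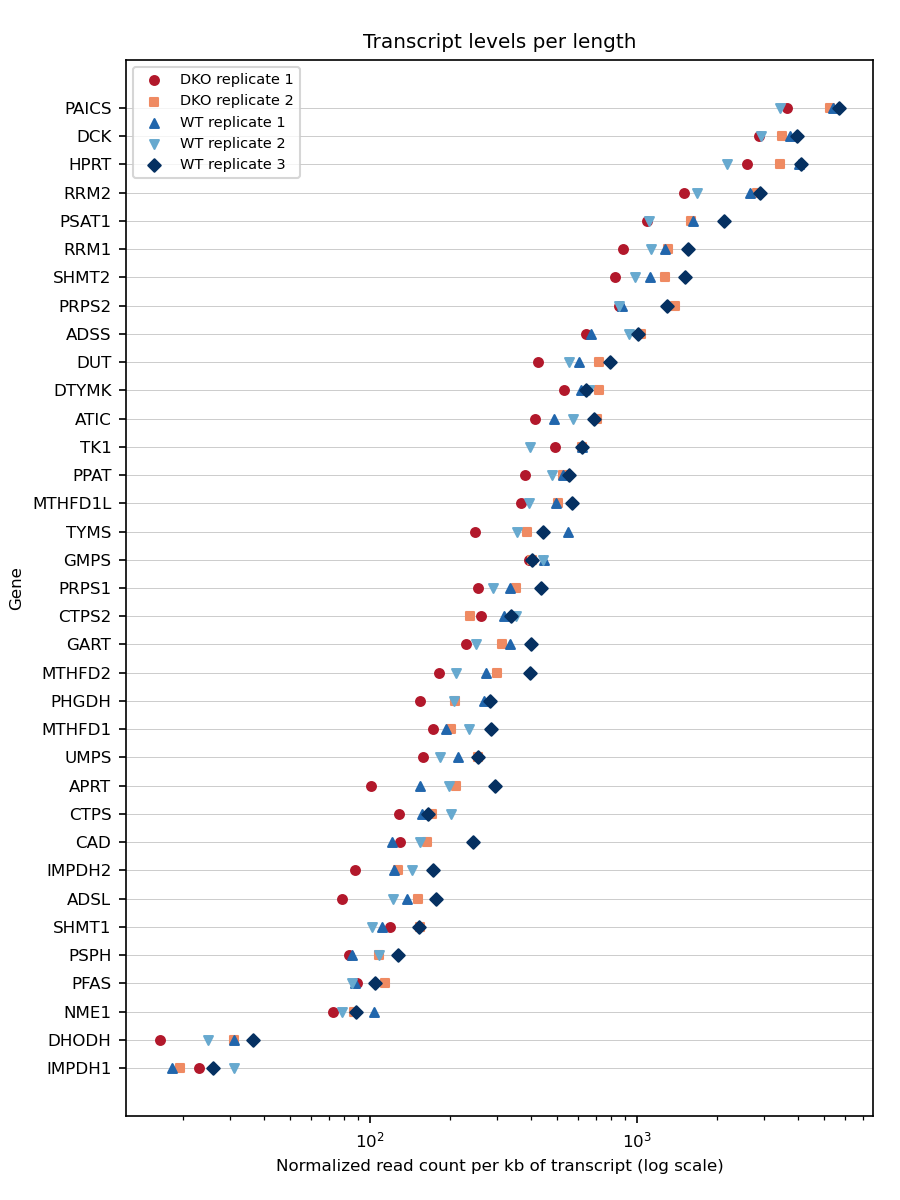
Normalized read count per kb of the longest annotated transcript of each gene in each library, on a log axis, ordered by the WT mean. PAICS, DCK and HPRT are at the top and DHODH and IMPDH1 at the bottom; within a row, the DKO replicate 1 point is mostly at the left end.

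Other genes of these and adjoining pathways were divided about evenly between lower and higher means. Of 82 such genes, 67 had enough reads for testing, of which 33 had lower and 34 higher means in DKO, a median difference of 0.00 on the log2 scale and 0 called. Under other scalings of the libraries 27 to 38 of the 67 were lower. DKO values lay all below WT in 5 of them and all above WT in 7, where 11% and 12.5% of all tested genes had these orders. Means were lower in DKO for 5 of 15 other purine genes, 8 of 11 pyrimidine, 5 of 8 deoxynucleotide, 5 of 14 folate and glycine, 2 of 5 methionine cycle, 6 of 7 pentose phosphate and 2 of 7 serine and glutamine supply genes. Whether the members and these genes differ was not tested.

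Of these genes 1 was under an unadjusted p of 0.05. SLC1A5, the main glutamine importer of activated lymphocytes, was at 2418 and 2771 normalized counts in DKO, against 1384, 1329 and 1924 in WT. Both DKO libraries were above all WT libraries, and the log2 fold change was 0.76 ± 0.22 (limma unadjusted p = 0.00802, adjusted p = 0.823). Without DKO replicate 2 its log2 fold change was 0.67 and its unadjusted p by limma 0.0664. AHCY, which clears S-adenosylhomocysteine, was at 144 and 187 in DKO, against 115, 98.0 and 81.7 in WT (log2 fold change 0.75 ± 0.34, limma adjusted p = 0.828). MTFMT, which uses formyl folate to start mitochondrial translation, was at 275 and 238 in DKO, against 137, 171 and 199 in WT (log2 fold change 0.61 ± 0.29). The groups did not overlap in these 3 genes, nor in GMPR2, a GMP reductase, with a log2 fold change of 0.28 ± 0.21.

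On the lower side, UCK1, a uridine and cytidine kinase, was at 129 and 131 in DKO, against 187, 152 and 243 in WT (log2 fold change -0.55 ± 0.32). The groups did not overlap in UCK1. GUK1, guanylate kinase, had a log2 fold change of -0.60 ± 0.34, and DGUOK, a mitochondrial deoxyguanosine kinase, one of -0.35 ± 0.29. MAT2B, a subunit of the S-adenosylmethionine synthetase, stood at -0.43 ± 0.25, PGLS of the pentose phosphate path at -0.46 ± 0.33 and GLUL, glutamine synthetase, at -0.38 ± 0.23. The genes of smallest p on the higher side of the remaining lists were CMPK1 (0.04 ± 0.21), NT5M (0.33 ± 0.33) and RPIA (0.06 ± 0.23).

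Factors known to drive these genes in dividing or stressed cells did not pass the test either. ATF4, an activator of serine and one-carbon genes, was at 1879 and 1891 normalized counts in DKO, against 1886, 1274 and 1909 in WT (log2 fold change 0.18 ± 0.23). E2F1, an activator of S phase genes, was at 128 and 172 in DKO, against 191, 167 and 164 in WT (log2 fold change -0.23 ± 0.30). In ATF4 the DKO libraries lay within the WT range, and in E2F1 DKO replicate 1 was the lowest of the 5.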

How the data were processed

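Per the labels' protocols, RNA of the sorted cells was checked for integrity and sequenced on a HiSeq2500 after amplification (NuGEN Ovation RNA-Seq System V2). The submitters' processing notes list TopHat2 2.0.4, Cufflinks 2.0.2, CASAVA 1.8.2 and, as genome build, mm9. How reads were counted, on which annotation and with which strand setting, and what set the scaling, is not given in the sources used here. Normalized signal per gene came from 1 table that the authors deposited, which holds read counts divided by 1 factor per library. Whole reads were recovered by dividing by the value of 1 read, and 99.9947% to 100% of values came out whole within 0.01.

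The labels' genotypes set the groups. The test was limma 3.58.1 (R 4.3.3), two-sided and with its trend option, on log2(value + 1) of genes with a mean of at least 10, a scale that understates changes of low genes. Benjamini-Hochberg adjustment ran over 13242 genes with a threshold of 0.05, 3 residual degrees of freedom and a prior of 5.92. EdgeR 4.0.16 and DESeq2 1.42.0 were run on the recovered reads as alternatives. The other alternatives were the pseudocount, the minimum value, other scalings, a replicate block, prior and weight settings, a length and GC correction, libraries left out and covariates, of which sex was added after seeing the data, as were the alternatives for the other pathway genes.

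The members and lists were chosen with earlier results of these data known, among them that nucleotide synthesis genes were lower in DKO. The text names all members, RELB, NFKB2, the gene of smallest p in each direction of each pathway list, and MYC, ATF4, E2F1, PCNA, MKI67, BCL6, CD3E, CCR7 and LYZ2, apart from a few genes that are not reported here. Transcript lengths and overlaps came from GENCODE M21, where 35708 of the table's names matched, and promoters from RefSeq GRCm38.p6. Both are of another build than the authors used, and the coordinates printed are those of RefSeq.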

Additional observations from a re-analysis of the deposited data

How the results depend on the processing

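No synthesis gene was called under any of the 22 alternatives, and pseudocounts, minimum values, the robust prior, weights, TMM and quantile scaling, edgeR and DESeq2 kept the direction of all 35. Over all genes the calls numbered 0 with limma as reported, 29 with DESeq2, 3 with T cell markers as a covariate, 2 with library weights, 2 without WT replicate 2 and DKO replicate 1 together and 0 to 1 with single libraries left out. With the replicate number as a block there were 36, the median over the members was -0.06 and 25 were lower, none called. Only WT had a library numbered 3, so this block left WT replicate 3 out of the difference between DKO and WT. The members' fold changes were the same as without that library. The labels do not say that a number pairs mice, and deviations of same-numbered libraries correlated at 0.0050 for number 1 and -0.28 for number 2.

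Libraries left out in turn moved the members' median from -0.44 to 0.032, the number lower from 13 to 35, the number with DKO all below WT from 1 to 27, all above from 0 to 7, and those under an unadjusted p of 0.05 from 0 to 2. Of all genes, 26.4% lay all below WT in DKO replicate 1 alone and 21.5% all above in DKO replicate 2 alone. Fits without a DKO library assume that the lone one varies like WT. Without WT replicate 2 and DKO replicate 1 together, 24 were lower (median -0.07), 11 lay all below and 8 all above. Of all genes 31.9% and 31.2% had these last 2 orders. TMM, quantile scaling and DESeq2 each gave 2 all below, and the shares of all genes under these settings were not counted. A single member (1 in each case) was under an unadjusted p of 0.05 with no minimum, TMM, weights, edgeR, DESeq2, the length and GC correction and the T cell covariate. With exon unions as lengths, the median level per kb was 238, against 353, and the same 10 genes led.

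Some log2 fold changes of members turned in sign. Scaling to genes outside the mitochondrial genome gave 0.00014 for ADSS and 0.022 for DTYMK, the length and GC correction 0.00053 for IMPDH1, and the sex covariate, added after seeing the data, 0.029 for ADSS. The replicate block, with the same fold changes as leaving out WT replicate 3, gave PAICS 0.027, ATIC 0.029, ADSS 0.046, HPRT 0.0027, CAD 0.094 and UMPS 0.018. Without WT replicate 2 and DKO replicate 1 together, ATIC was at 0.28, ADSS 0.33, UMPS 0.13, CTPS 0.084, RRM2 0.023, DTYMK 0.19, TK1 -0.0068, DUT 0.059 and PSPH 0.050. With single libraries left out, log2 fold changes ran from -0.45 to 0.017 for PPAT, from -0.046 to 0.29 for PFAS, from -0.38 to 0.16 for PAICS, from -0.87 to 0.079 for ADSL, from -0.48 to 0.28 for ATIC, from -0.41 to 0.27 for ADSS, from -0.46 to 0.016 for PRPS1, from -0.21 to 0.49 for PRPS2, from -0.46 to 0.052 for HPRT, from -1.03 to 0.025 for APRT, from -0.41 to 0.094 for CAD, from -0.88 to 0.035 for DHODH, from -0.45 to 0.24 for UMPS, from -0.64 to 0.26 for RRM2, from -0.26 to 0.17 for DTYMK, from -0.17 to 0.21 for TK1, from -0.60 to 0.17 for DUT, from -0.015 to 0.36 for SHMT1, from -0.52 to 0.10 for SHMT2, from -0.64 to 0.078 for MTHFD2, from -0.39 to 0.072 for MTHFD1L, from -0.52 to 0.031 for PSAT1 and from -0.33 to 0.032 for PSPH. Members that kept their sign moved too, from -0.49 to -0.040 for GART, -0.43 to -0.025 for CTPS, -0.56 to -0.0035 for RRM1, -0.29 to -0.0087 for DCK and -0.84 to -0.20 for TYMS. The cause was not tested.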
